A study of Homo sapiens with 14 samples.

Results

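The human genes named MRPL and MRPS encode the proteins of the mitochondrial ribosome, and 72 of them were followed across RNA sequencing libraries of KYSE510, an esophageal squamous cell carcinoma line. A gene was included where its name consists of MRPL or MRPS, a number and at most 1 letter from A to C, and where its mean reached 1 FPKM (a read density scaled to gene length and library depth) over the 6 libraries of a table, in both of the 2 deposited tables. These 72 genes stand among 63677 listed. The rule itself uses measured values only through that minimum level.

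KYSE510 cells were transfected with siRNA by lipofectamine RNAiMAX and taken for total RNA 48 h later. One series holds the EZH2 knockdowns siEZH2-1 and siEZH2-2 with the control siNC. The other holds the knockdowns siLAT1-2 and siLAT1-3 of LAT1, an amino acid transporter encoded by SLC7A5, with a siNC of its own. Each of these 6 groups has 2 libraries. All come from 1 cell line. Whether the libraries within a group stem from cultures grown apart is not stated in the sources used here, and p-values below therefore measure the spread between libraries and nothing more. Both siRNAs of a series are compared with the same siNC libraries.

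The mitochondrial ribosome translates the few proteins that mitochondrial DNA encodes, which are all parts of the respiratory chain and the ATP synthase. Its RNAs are made inside the organelle, while all of its proteins are encoded in the nucleus, made in the cytosol and imported. The small subunit reads the messenger RNA and the large subunit joins the amino acids and releases the chain through an exit tunnel. Many of the proteins descend from those of the bacterial ribosome and others were added in the mitochondrial lineage. Of the 72 members, 46 belong to the large subunit, MRPS30 and MRPS18A included despite their names, and 25 to the small subunit. MRPS36 was kept apart because its protein is now assigned to the oxoglutarate dehydrogenase complex. Proteins with bacterial counterparts account for 44 members and proteins without them for 27. MRPS18A and MRPS18B are counted among the 27, although they are paralogs of a bacterial protein.

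Promoter windows were available for 63 of the 72 members, from 250 bases before to 50 after the RefSeq transcription start in GRCh38.p14. No window was matched for MRPL10, MRPL13, MRPL15, MRPL2, MRPL21, MRPL23, MRPL35, MRPS28 and MRPS36. The windows of 4 members that were called higher with every siRNA, and of MRPL24, which departed furthest from the others, are shown 5′ to 3′ on the strand of the gene. Capitals mark matches on either strand to CCGGAAG (bound by ETS factors such as GABPA), to the motif of YY1, to CACGTG (the E-box bound by MYC) and to GGGCGG (the GC box bound by SP1). MRPS34 lies at chr16:1773085-1773384 on the minus strand, MRPL49 at chr11:65121933-65122232 on the plus strand, MRPL36 at chr5:1799788-1800087 on the minus strand, MRPL22 at chr5:154940823-154941122 on the plus strand and MRPL24 at chr1:156741039-156741338 on the minus strand.
MRPS34: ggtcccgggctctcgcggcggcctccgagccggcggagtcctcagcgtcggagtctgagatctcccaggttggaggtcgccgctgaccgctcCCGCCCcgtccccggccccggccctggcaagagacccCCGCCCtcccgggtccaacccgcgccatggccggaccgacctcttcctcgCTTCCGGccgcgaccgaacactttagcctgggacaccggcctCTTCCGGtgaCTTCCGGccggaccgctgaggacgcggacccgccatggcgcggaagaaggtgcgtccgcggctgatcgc
MRPL49: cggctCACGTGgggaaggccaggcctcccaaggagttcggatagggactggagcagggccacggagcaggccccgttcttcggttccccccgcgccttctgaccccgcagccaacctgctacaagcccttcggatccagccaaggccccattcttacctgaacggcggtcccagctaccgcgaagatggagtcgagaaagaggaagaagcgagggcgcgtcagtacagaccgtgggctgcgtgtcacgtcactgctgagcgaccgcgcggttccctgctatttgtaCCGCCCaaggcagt
MRPL36: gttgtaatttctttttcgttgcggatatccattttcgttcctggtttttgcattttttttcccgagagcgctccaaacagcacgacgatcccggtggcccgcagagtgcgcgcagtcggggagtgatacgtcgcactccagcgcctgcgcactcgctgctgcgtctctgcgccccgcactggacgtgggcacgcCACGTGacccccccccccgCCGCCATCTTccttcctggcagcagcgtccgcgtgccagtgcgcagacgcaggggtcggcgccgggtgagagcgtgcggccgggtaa
MRPL22: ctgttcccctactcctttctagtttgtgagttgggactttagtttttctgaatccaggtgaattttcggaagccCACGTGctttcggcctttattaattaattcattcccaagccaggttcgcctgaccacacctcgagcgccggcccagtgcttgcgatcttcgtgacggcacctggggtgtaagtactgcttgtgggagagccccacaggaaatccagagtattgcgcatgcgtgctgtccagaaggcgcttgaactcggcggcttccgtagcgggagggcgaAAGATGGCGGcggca
MRPL24: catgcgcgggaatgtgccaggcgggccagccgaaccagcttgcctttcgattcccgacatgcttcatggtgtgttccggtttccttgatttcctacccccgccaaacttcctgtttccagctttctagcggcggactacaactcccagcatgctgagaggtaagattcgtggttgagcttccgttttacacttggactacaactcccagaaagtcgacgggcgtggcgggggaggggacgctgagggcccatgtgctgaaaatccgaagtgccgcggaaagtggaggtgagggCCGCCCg
MRPS34 has 3 matches to the ETS motif and 2 to the GC box, MRPL36 and MRPL22 each have 1 to the YY1 motif (the longest run of capitals in each, as searched in MRPL22 and as its reverse complement in MRPL36) and 1 to the E-box, MRPL49 has 1 E-box and 1 GC box, and MRPL24 has 1 GC box.

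Across the members, the ETS motif occurred in 26 of 63 windows (41.3%), against 14.2% of 15843 protein-coding windows and 10.7% of all 27305 windows of this length. The YY1 motif occurred in 10 of 63 (15.9%), against 1.93% of protein-coding and 1.28% of all windows. The AAG that ends the ETS motif is also the start of the YY1 motif, so a single stretch can match both. GGGCGG was in 39 of 63 member windows (61.9%) and 58.5% of protein-coding ones, CACGTG in 6 of 63 (9.52%) and 8.88%, and the NRF1 motif (GCGCA followed directly by its reverse complement) in 1 of 63 (1.59%) and 1.75%. Against all windows the shares were 44.6% for GGGCGG, 7.43% for CACGTG and 1.36% for the NRF1 motif. A protein-coding gene started within 1000 bases in the opposite direction for 15 of 63 members (23.8%), against 10.3% of 15843 protein-coding genes. One such pair is MRPL49 and FAU, the cytosolic ribosomal protein gene, with starts 49 bases apart. The windows compared were not limited to genes expressed in these cells, while members had to reach 1 FPKM. Being a member and being expressed are therefore not separated in these shares. These matches describe the letters of the windows only.

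Depth, estimated from the value that 1 read is worth, was 21000000 to 27060000 reads per EZH2-series library and 12780000 to 16780000 per LAT1-series library. In each library 11465 to 11794 genes reached 1 FPKM. EZH2 stood at 6.63 and 7.24 FPKM with siEZH2-1 and at 6.40 and 6.04 with siEZH2-2, against 17.1 and 17.1 with siNC, which is 40.6% and 36.4% of the siNC mean. SLC7A5 stood at 86.3 and 80.4 FPKM with siLAT1-2 and at 107 and 107 with siLAT1-3, against 407 and 413 with siNC, which is 20.3% and 26.0% of the siNC mean, and in the EZH2 series at 24.9% with siEZH2-1 and 78.6% with siEZH2-2. All 12 squamous epithelial markers reached 1 FPKM in both tables, with KRT5, a keratin of basal epithelium, highest at 490 and 468 FPKM. Of markers of other cells, COL1A1 (1.23 and 2.00 FPKM) among 10 for fibroblasts and CDH5 (1.02 FPKM, LAT1 series) among 7 for endothelium reached 1 FPKM, and none of 11 for immune cells did. In such bulk libraries, a change in the share of some cells and a change in RNA per cell cannot be told apart.

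The members were expressed well above most genes. In every library the median member lay between percentiles 80.6 and 85.2 of the genes tested, and the members together made up 0.803% to 1.06% of the summed FPKM. Their means over the 12 libraries spanned a 59.0-fold range, with 62 members between 10 and 100 FPKM, 9 below and 1 above. MRPS18B was the highest at 129 FPKM, followed by MRPS34 (93.3 FPKM), MRPL3 (92.6 FPKM), a protein close to the catalytic centre, and MRPL47 (91.7 FPKM), a protein near the exit of the tunnel. The lowest were MRPS18C (2.18 FPKM), MRPL53 (2.26 FPKM), MRPS17 (3.71 FPKM) and MRPS28 (5.90 FPKM). The order was similar in the siNC libraries of both series (Spearman's rho of 0.885 over 72 genes, a description across genes of 1 cell line). Since the tables may have been normalized separately, levels of the LAT1 and EZH2 series are set side by side only.

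MRPS18A, MRPS18B and MRPS18C are paralogs of 1 bacterial protein that occupy different places in the human mitochondrial ribosome. MRPS18B had 195 and 205 FPKM with siEZH2-1, 181 and 175 with siEZH2-2, and 163 and 165 with siNC. Its level in the LAT1 series was 79.7 and 76.04 FPKM with siLAT1-2, 74.5 and 77.8 with siLAT1-3, and 72.1 and 78.9 with siNC. MRPS18A had 9.66 to 15.7 FPKM over all libraries and MRPS18C 1.65 to 2.61 FPKM. The paralogs thus kept the same order in all libraries, with MRPS18B many times above the others. Of the 3, MRPS18B alone was called against siNC, at log2 0.28 ± 0.05 (SE) with siEZH2-1 (limma, Benjamini-Hochberg adjusted p = 0.0103); the call was lost without siEZH2-1 replicate 2 (adjusted p = 0.0847) or siNC replicate 1 (0.0717).

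Rows that carry the name of a mitochondrial ribosomal protein but did not reach the level numbered 14, under 8 symbols. For MRPL45, MRPS17, MRPS18B and MRPS36 these are further rows of genes that have a member row. The other 4 symbols have none. MRPL46 averaged 0.843 FPKM in the EZH2 table and 0.648 in the LAT1 table, just under the limit of 1, while MRPS18C and MRPL53 were the members closest above it. MRPL38 averaged 0.275 and 0.157 FPKM, MRPS24 0.202 and 0.177 FPKM, and both rows of MRPL30 were at or near 0. Of 67 pseudogenes named for members, 46 were at 0 in every library and only MRPL45P2 reached a mean of 1 FPKM in each table. RefSeq places 31 of the 72 members over another gene, and as neither the counting program nor its use of strand is stated, reads of such pairs cannot be told apart.

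Changes were tested with limma on log2(FPKM + 1) in each table over all genes averaging 1 FPKM or more, and a gene was called at a two-sided Benjamini-Hochberg adjusted p under 0.05. On this scale the change of low genes is understated. With EZH2 siRNA more members were called higher than lower. With siEZH2-1, 17 of 72 members were called higher (23.6%, against 15.9% of the 11585 genes tested) and 4 lower (5.56%, against 11.4%). With siEZH2-2, 15 were called higher (20.8%, against 13.9%) and 1 lower (1.39%, against 10.9%). The median change of the members was log2 0.10 with siEZH2-1 and 0.08 with siEZH2-2, beside 0.03 over all genes in each. Both siEZH2-1 libraries lay above both siNC libraries for 34 members (47.2%, against 38.5% of genes) and below them for 9 (12.5%, against 28.7%), and with siEZH2-2 this was so for 36 (50%, against 36.1%) and 13 (18.1%, against 26.8%). Of the 72, 53 were above 0 with siEZH2-1 (73.6%, against 55.7% of genes) and 52 with siEZH2-2 (72.2%, against 55.9%). By subunit, 9 of 25 small-subunit and 8 of 46 large-subunit members were called higher with siEZH2-1, and 7 and 8 with siEZH2-2. The share called higher was thus larger in the small subunit, while that of the large subunit was only a little above that of all genes. Above 0 were 76% of small-subunit and 71.7% of large-subunit members with siEZH2-1, and 84% and 67.4% with siEZH2-2.

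These counts depended on single libraries. Without siEZH2-1 replicate 2 the siEZH2-1 count was 4 higher and 3 lower, without siEZH2-1 replicate 1 it was 10 and 3, without siNC replicate 1 it was 6 and 4, and without siNC replicate 2 it was 9 and 3. For siEZH2-2 it was 2 higher and 1 lower without siEZH2-2 replicate 1 and equally without siNC replicate 1, and 7 and 1 without siNC replicate 2. The members also moved together between libraries of the same group. Between the libraries numbered 2 and 1 (2 minus 1), the median member differed by log2 0.08 within siEZH2-1 (56 of 72 above 0), by -0.10 within siEZH2-2 (6 of 72 above 0) and by 0.06 within siNC (57 of 72 above 0), beside all-gene medians of -0.00, 0.00 and 0.00. Their mean level was log2 4.87 and 4.95 with siEZH2-1, 4.93 and 4.82 with siEZH2-2, and 4.77 and 4.84 with siNC, so that by the mean the lower siEZH2-2 library lay below the higher siNC one. By the member median the groups did not overlap, at log2 4.94 and 4.99 with siEZH2-1, 4.98 and 4.97 with siEZH2-2, and 4.88 and 4.90 with siNC. In the LAT1 series the corresponding differences were -0.00, 0.02 and 0.02. When each library was centred on its member median, the split was 11 higher and 7 lower with siEZH2-1 and 4 higher and 5 lower with siEZH2-2. Such centring removes any shift the members share, so a more even split is built into it.

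**Figure D1:**
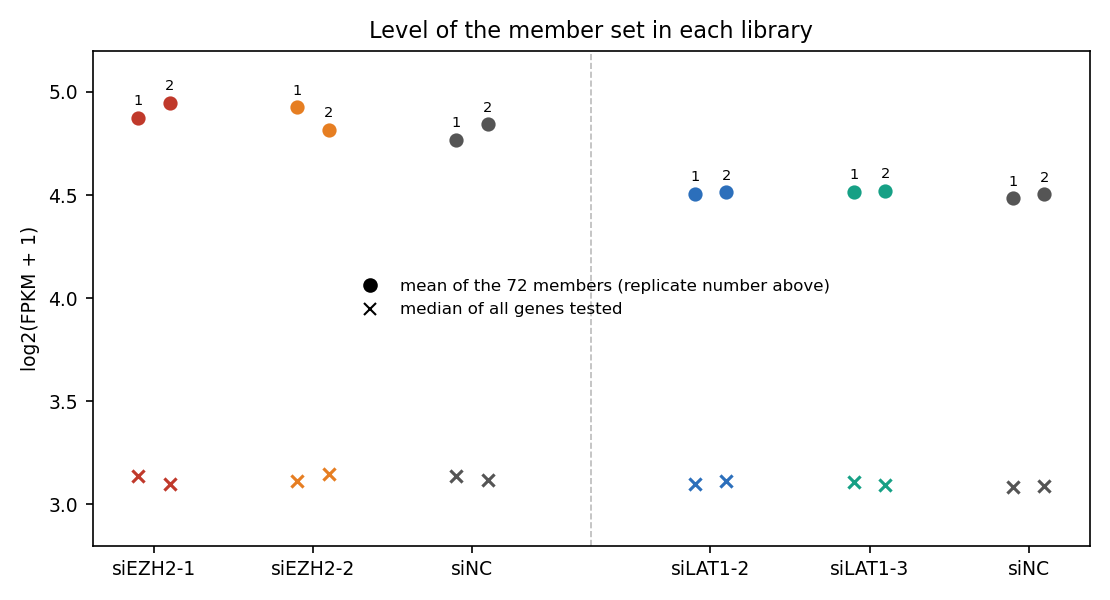
Mean log2(FPKM + 1) of the 72 members (dots, with the replicate number above) and median of all genes tested (crosses) in each of the 12 libraries. The dashed line separates the 2 tables, which may have been normalized separately. Libraries of a group in the EZH2 series are up to 0.11 apart (4.93 and 4.82 with siEZH2-2), while those of the LAT1 series lie between 4.49 and 4.52.

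With LAT1 siRNA the share of members called higher was near that of all genes. With siLAT1-2, 14 of 72 were called higher (19.4%, against 18.6% of the 11678 genes tested) and 6 lower (8.33%, against 13.9%). With siLAT1-3, 14 were called higher (19.4%, against 17.9%) and 9 lower (12.5%, against 13.6%). Both siLAT1-2 libraries lay above both siNC libraries for 22 members (30.6%, against 37.6% of genes) and below them for 18 (25%, against 31.1%), and with siLAT1-3 this was so for 33 (45.8%, against 37.0%) and 14 (19.4%, against 30.0%). Above 0 were 37 members with siLAT1-2 (51.4%, against 53.5% of genes) and 46 with siLAT1-3 (63.9%, against 54.2%). Median changes were log2 0.00 with siLAT1-2 and 0.04 with siLAT1-3, beside 0.02 over all genes in each. Of the 9 called lower with siLAT1-3, 8 were large-subunit proteins and 1 was a small-subunit protein. Leaving out a siNC library gave 9 higher and 4 lower (replicate 1) or 7 and 2 (replicate 2) for siLAT1-2, and 8 and 7 or 9 and 6 for siLAT1-3. With quantile normalization the siLAT1-2 split was 9 higher and 9 lower. Centred on the member median, which removes any shift the members share, the siLAT1-3 split was 9 higher and 14 lower.

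The set stayed closer together than genes at large in both series. The interquartile range of the members' changes was log2 0.21 with siEZH2-1, 0.17 with siEZH2-2, 0.14 with siLAT1-2 and 0.18 with siLAT1-3, beside 0.34, 0.30, 0.26 and 0.25 over all genes. The members also lie in a higher range of levels, where the standard error was smaller (EZH2 table, median 0.07 for members and 0.08 for all genes; LAT1 table, 0.04 and 0.06). Changes beyond log2 0.5 were seen for 4 members with siEZH2-1 (5.56%, against 9.87% of genes), 1 with siEZH2-2 (1.39%, against 9.80%), 0 with siLAT1-2 (against 7.09%) and 2 with siLAT1-3 (2.78%, against 6.83%). Of the 72 members, 41 were called with at least 1 of the 4 siRNAs (56.9%, against 61.9% of the 10804 genes tested in both tables), and 31 with none.

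**Figure D2:**
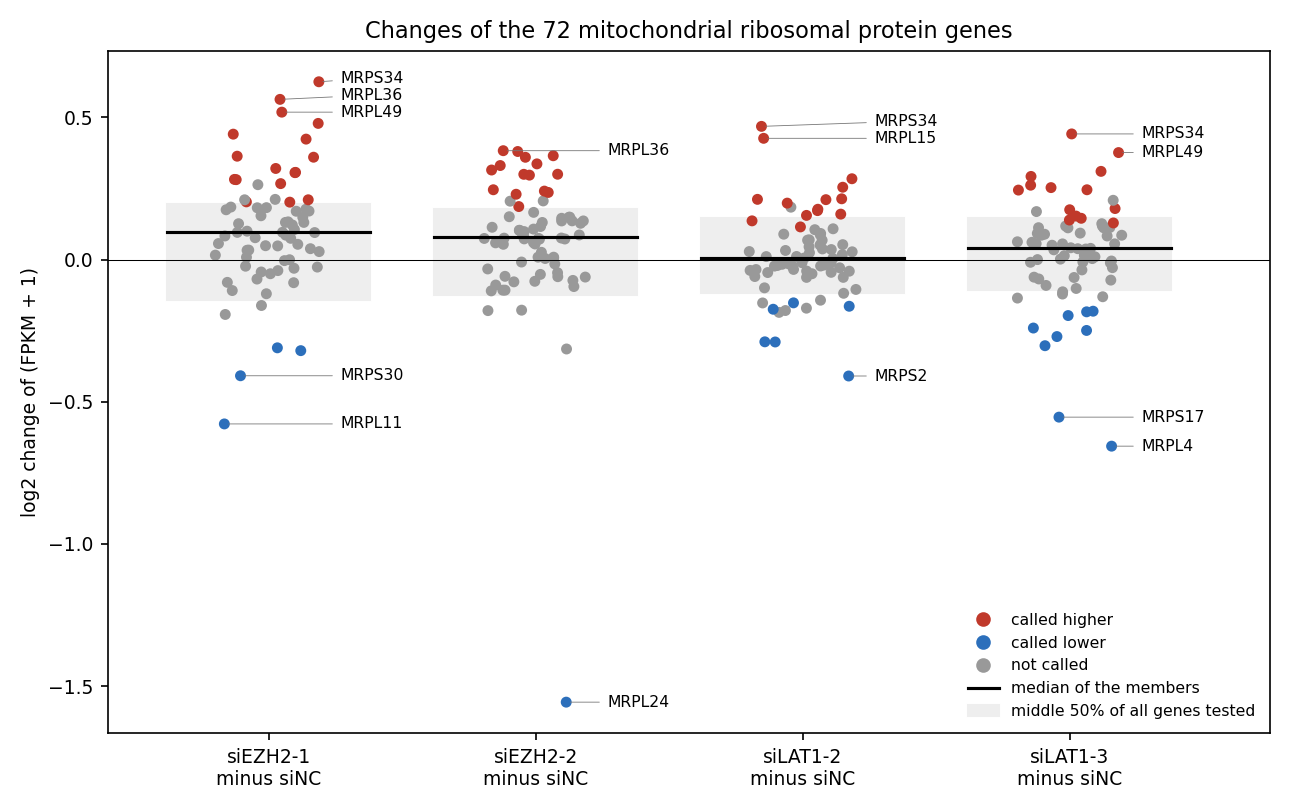
Log2 change of (FPKM + 1) of each of the 72 members (dots) for each siRNA minus the siNC of its series, with members called higher in red, called lower in blue and not called in grey; black lines are member medians and grey boxes the interquartile range of all genes tested. MRPL24 lies at -1.56 with siEZH2-2, and MRPS34 is among the highest with siEZH2-1, siLAT1-2 and siLAT1-3.

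**Figure D3:**
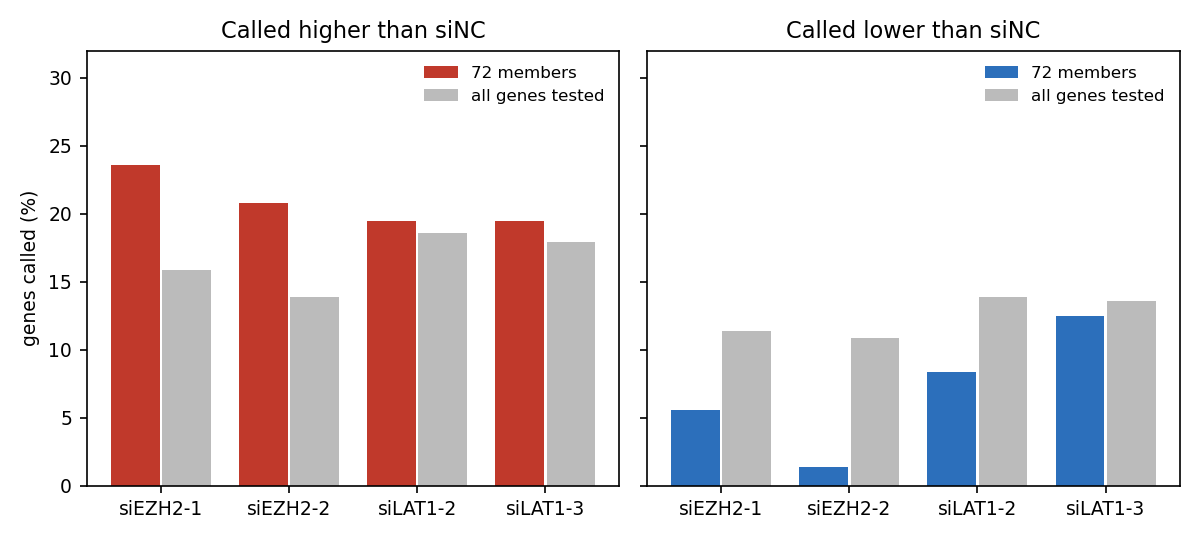
Percentage of the 72 members and of all genes tested that were called higher (left) or lower (right) than siNC with each siRNA. The member bar for higher calls is above that of all genes with each siRNA, most with the EZH2 siRNAs (23.6% against 15.9%, and 20.8% against 13.9%), and the bar for lower calls is below it, most with siEZH2-2 (1.39% against 10.9%).

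Called higher with each of the 4 siRNAs were 6 members, MRPS34, MRPL49, MRPL36, MRPL22, MRPS7 and MRPL16, and none was called lower with all 4. These are 8.33% of the members, against 5.39% of the genes tested in both tables for higher calls, and 0 of 72 against 1.34% for lower calls. MRPS34, a small-subunit protein without bacterial counterpart that the stability of that subunit depends on, had 123 and 139 FPKM with siEZH2-1, 116 and 102 with siEZH2-2, and 79.1 and 90.2 with siNC. It had 88.4 and 85.7 FPKM with siLAT1-2, 86.0 and 84.9 with siLAT1-3, and 60.9 and 64.5 with siNC. Every siRNA library was above both siNC libraries of its series. The changes were log2 0.63 ± 0.10 with siEZH2-1 (limma, adjusted p = 0.00557), 0.36 ± 0.10 with siEZH2-2 (0.0371), 0.47 ± 0.04 with siLAT1-2 (1.67e-04) and 0.44 ± 0.04 (SE) with siLAT1-3 (2.41e-04). The siEZH2-2 call was lost without siEZH2-2 replicate 1 (adjusted p = 0.156) or siNC replicate 1 (0.175). EME2, which RefSeq places over MRPS34, averaged 1.97 FPKM in the EZH2 table and 1.45 in the LAT1 table and was not called with any siRNA.

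MRPL49, a large-subunit protein without bacterial counterpart, had 38.6 and 41.8 FPKM with siEZH2-1, 35.2 and 35.4 with siEZH2-2, and 28.3 and 27.2 with siNC. In the LAT1 series it had 36.6 and 32.3 FPKM with siLAT1-2, 38.4 and 39.0 with siLAT1-3, and 30.1 and 29.1 with siNC. The siRNA and siNC libraries did not overlap in either series. Its changes were log2 0.52 ± 0.06 with siEZH2-1 (limma, adjusted p = 0.00183), 0.34 ± 0.06 with siEZH2-2 (0.00858), 0.21 ± 0.06 with siLAT1-2 (0.0309) and 0.38 ± 0.06 with siLAT1-3 (0.00347). Only the siLAT1-2 call was lost when a library was left out, without siLAT1-2 replicate 1 (adjusted p = 0.085), siNC replicate 1 (0.089) or siNC replicate 2 (0.145). SYVN1, which overlaps MRPL49 in RefSeq, averaged 9.26 and 8.28 FPKM in the EZH2 and LAT1 tables and differed from siNC by log2 -0.04, 0.12, -0.22 and 0.21 with siEZH2-1, siEZH2-2, siLAT1-2 and siLAT1-3, called with both LAT1 siRNAs (limma, adjusted p = 0.0284 and 0.0342).

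MRPL36, a small zinc-binding protein of the large subunit, had 24.3 and 26.4 FPKM with siEZH2-1, 24.2 and 20.5 with siEZH2-2, and 17.6 and 16.1 with siNC. It had 29.2 and 30.9 FPKM with siLAT1-2, 31.6 and 31.9 with siLAT1-3, and 26.8 and 26.2 with siNC. Both siNC groups lay below all siRNA libraries of their series. The change was log2 0.56 ± 0.09 with siEZH2-1 (limma, adjusted p = 0.00688), 0.38 ± 0.09 with siEZH2-2 (0.026), 0.18 ± 0.04 with siLAT1-2 (0.0121) and 0.25 ± 0.04 with siLAT1-3 (0.00311). The siEZH2-2 call was lost without siEZH2-2 replicate 1 (adjusted p = 0.104), siNC replicate 1 (0.0564) or siNC replicate 2 (0.11), and the siLAT1-2 call without siLAT1-2 replicate 2 (0.0594) or siNC replicate 2 (0.0756). NDUFS6, a complex I subunit gene that overlaps MRPL36 in RefSeq, averaged 53.7 and 53.9 FPKM and was not called with any siRNA.

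MRPL22, whose bacterial counterpart lines the exit tunnel, had 17.3 and 18.1 FPKM with siEZH2-1, 17.1 and 15.3 with siEZH2-2, and 12.8 and 13.1 with siNC. It had 12.4 and 12.3 FPKM with siLAT1-2, 11.9 and 12.9 with siLAT1-3, and 9.87 and 9.99 with siNC. Here too no siRNA library overlapped with siNC. The change was log2 0.42 ± 0.07 with siEZH2-1 (limma, adjusted p = 0.00652), 0.30 ± 0.07 with siEZH2-2 (0.0213), 0.28 ± 0.05 with siLAT1-2 (0.00486) and 0.29 ± 0.05 with siLAT1-3 (0.00457). The siEZH2-1 call was lost without siEZH2-1 replicate 2 (adjusted p = 0.0511), and the siEZH2-2 call without siEZH2-2 replicate 1 (0.103), siNC replicate 1 (0.103) or siNC replicate 2 (0.0713).

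MRPS7 and MRPL16 were called with smaller changes. MRPS7, whose bacterial counterpart organises the head of the small subunit, had 33.98 and 36.2 FPKM with siEZH2-1, 36.2 and 32.7 with siEZH2-2, and 28.6 and 29.4 with siNC, and in the LAT1 series 23.9 and 24.8 with siLAT1-2, 23.9 and 25.6 with siLAT1-3, and 22.2 and 21.3 with siNC. Its changes ran from log2 0.16 with siLAT1-2 to 0.27 with siEZH2-1 (limma, adjusted p between 0.0243 and 0.0425). Each of these calls was lost without either siNC library, among others, with adjusted p up to 0.19. MRPL16, which sits near the catalytic centre, had 37.4 and 39.7 FPKM with siEZH2-1, 40.3 and 39.2 with siEZH2-2, and 32.7 and 34.1 with siNC, and 29.0 and 28.3 with siLAT1-2, 31.3 and 31.7 with siLAT1-3, and 26.1 and 26.6 with siNC. Its change with siLAT1-3 was log2 0.25 ± 0.03 (limma, adjusted p = 0.00171) and stayed called whichever library was left out. Its calls with siEZH2-1 (log2 0.20), siEZH2-2 (0.25) and siLAT1-2 (0.11) were each lost whichever library of the groups compared was left out, with adjusted p from 0.0591 to 0.225, and the siEZH2-1 call also without either siEZH2-2 library (0.0561 and 0.0556).

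**Figure D4:**
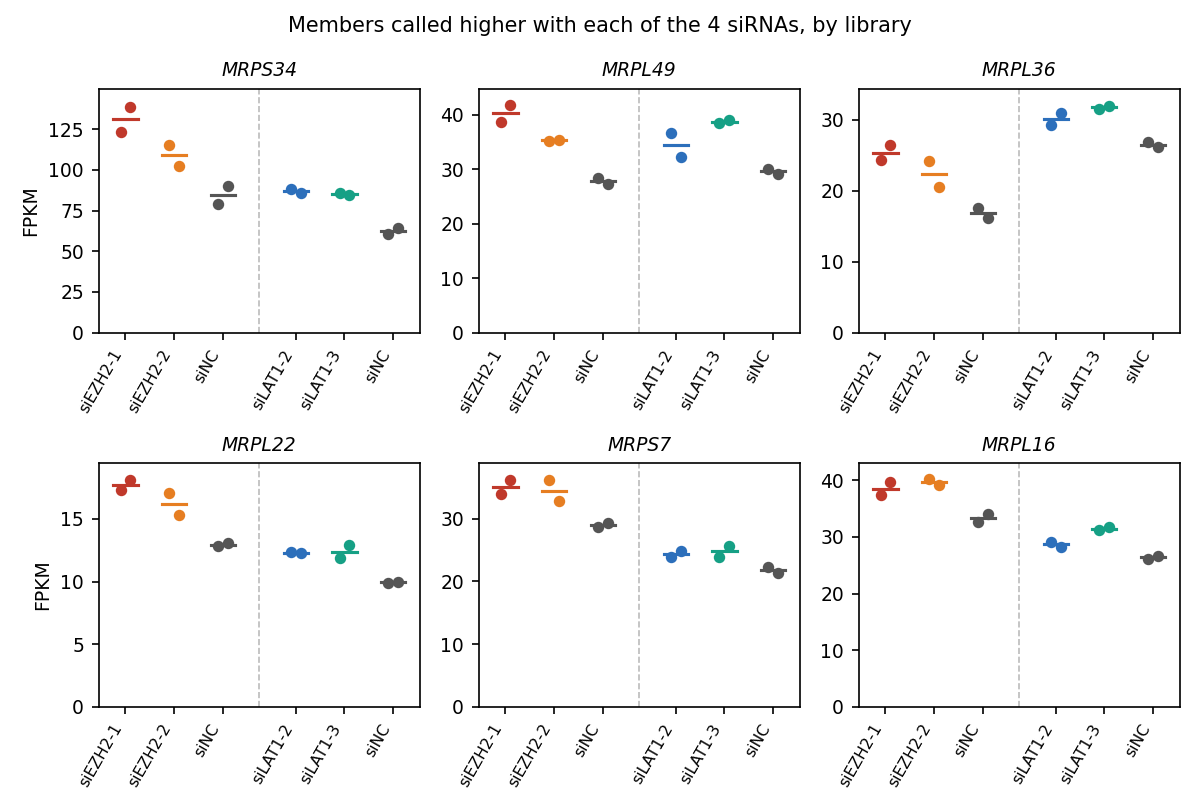
FPKM of the 6 members called higher with each of the 4 siRNAs, by library (dots) with group means (lines, n = 2); the dashed line separates the EZH2 and LAT1 tables. In every panel the siRNA libraries lie above the siNC libraries of their series, with MRPS34 the most abundant at 60.9 to 139 FPKM.

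Between the series, which share no library, 7 members were called higher with both siEZH2-1 and siLAT1-2 (41.2% of 17 and 50% of 14), and 9 with both siEZH2-2 and siLAT1-2 (60% of 15 and 64.3% of 14). With siLAT1-3, 7 were shared with siEZH2-1 (41.2% and 50%) and 8 with siEZH2-2 (53.3% and 57.1%). Over all genes tested in both tables the same shares were 55.2% and 46.7% for siEZH2-1 and siLAT1-2, 57.9% and 43.2% for siEZH2-2 and siLAT1-2, 53.2% and 47.5% for siEZH2-1 and siLAT1-3, and 56.0% and 44.1% for siEZH2-2 and siLAT1-3. Member shares were thus below those of genes for siEZH2-1 calls, near them for siEZH2-2 calls and above them for calls of either LAT1 siRNA. Each member share rests on only 7 to 9 genes. Of members called lower, MRPL34 and MRPS30 were shared by siEZH2-1 (of 4) and siLAT1-2 (of 6). The overlap of lower calls over all genes was not computed, so these counts have no background to be read against. MRPS35 was called lower with siEZH2-1 and higher with both LAT1 siRNAs, and MRPL24 lower with siEZH2-2 and higher with both LAT1 siRNAs. HDGF, which RefSeq places over MRPL24, was also called higher with both LAT1 siRNAs, and reads of the pair cannot be told apart. MRPL4 was called higher with siEZH2-1 and lower with siLAT1-3, and MRPL15 higher with siEZH2-2 and lower with siLAT1-3. The LAT1 calls of MRPL24 were lost without siNC replicate 2 (siLAT1-2, limma, adjusted p = 0.0628), and without siLAT1-3 replicate 2 (0.117) or either siNC library (siLAT1-3, 0.0833 and 0.155). The siLAT1-3 call of MRPS35 was lost without siLAT1-3 replicate 2 (0.0522) or either siNC library (0.0724 and 0.0597).

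MRPS21 and MRPS27 were further members called higher with both EZH2 siRNAs. MRPS21, a small-subunit protein with a bacterial counterpart, had 68.6 and 72.7 FPKM with siEZH2-1, 69.7 and 62.2 with siEZH2-2, and 47.4 and 53.6 with siNC. The change was log2 0.48 ± 0.08 with siEZH2-1 (limma, adjusted p = 0.00862) and 0.38 ± 0.08 with siEZH2-2 (0.0185). Calls were lost without siEZH2-1 replicate 2 (adjusted p = 0.0578), and without siEZH2-2 replicate 1 (0.0863) or siNC replicate 1 (0.0949). MRPS27, a small-subunit protein of the pentatricopeptide repeat family, had 31.3 and 32.5 FPKM with siEZH2-1, 30.3 and 31.3 with siEZH2-2, and 25 and 24.1 with siNC. In the LAT1 series it had 22.7 and 22.4 FPKM with siLAT1-2, 19.65 and 18.9 with siLAT1-3, and 19.1 and 18.4 with siNC. There it was called higher than siNC with siLAT1-2 and not with siLAT1-3. The change of MRPS27 was log2 0.36 ± 0.05 with siEZH2-1 (limma, adjusted p = 0.0045) and 0.31 ± 0.05 with siEZH2-2 (0.0077), and both of these calls held whichever library was left out.

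With both LAT1 siRNAs, MRPS23 was called higher and MRPL33 and MRPL34 lower. MRPS23, a small-subunit protein without bacterial counterpart, had 46.3 and 50.5 FPKM with siLAT1-2, 51.2 and 52.8 with siLAT1-3, and 42.7 and 43.7 with siNC (log2 0.16, adjusted p = 0.0335, and log2 0.26, adjusted p = 0.00537, by limma); the siLAT1-2 call was lost without siLAT1-2 replicate 2 (0.13), siNC replicate 1 (0.153) or siNC replicate 2 (0.0955). MRPL33, a small large-subunit protein, had 24.3 and 26.5 FPKM with siLAT1-2, 26.7 and 28.2 with siLAT1-3, and 31.0 and 31.5 with siNC (log2 -0.29, adjusted p = 0.00479, and -0.18, adjusted p = 0.0306, by limma); the siLAT1-3 call was lost without siLAT1-3 replicate 1 (0.137), siNC replicate 1 (0.104) or siNC replicate 2 (0.133). MRPL34, another small protein of the large subunit, had 15.5 and 16.6 FPKM with siLAT1-2, 15.4 and 14.7 with siLAT1-3, and 17.98 and 18.1 with siNC (log2 -0.16, adjusted p = 0.0327, and -0.25, adjusted p = 0.007, by limma). The siLAT1-2 call of MRPL34 was lost without siLAT1-2 replicate 1 (0.145), siNC replicate 1 (0.113) or siNC replicate 2 (0.133). MRPL34 was also called lower with siEZH2-1, at 35.7 and 37.5 FPKM against 42.6 and 48.7 with siNC (log2 -0.31 ± 0.08, limma, adjusted p = 0.0312), and that call was lost without either siEZH2-1 library (0.117 and 0.0957) or siNC replicate 2 (0.119).

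Several members that broke from the set differed between the 2 siRNAs of a series, while MRPS34, described above, lay far above the set with siEZH2-1 (log2 0.63) without a called difference between the EZH2 siRNAs (siEZH2-2 minus siEZH2-1 -0.27, limma, adjusted p = 0.113). Between siEZH2-2 and siEZH2-1, 5 members were called higher with siEZH2-2 (6.94%, against 7.4% of genes) and 2 lower (2.78%, against 8.86%). Without overlap of libraries, 17 were higher (23.6%, against 27.7%) and 24 lower (33.3%, against 30.1%). The 2 lower were MRPL24 and MRPS18A. MRPL24, a large-subunit protein whose bacterial counterpart binds early in assembly, had 15.7 and 12.3 FPKM with siEZH2-2, 50.6 and 52.5 with siEZH2-1, and 39.8 and 45.9 with siNC. Both siEZH2-2 libraries were far below all others of the series. The siEZH2-2 mean was 32.6% of siNC (log2 -1.56 ± 0.12, 95% interval -1.84 to -1.28; limma, adjusted p = 4.37e-04) and 27.1% of siEZH2-1 (log2 -1.82 ± 0.12, adjusted p = 3.72e-04), and both calls held whichever library was left out. In the LAT1 series MRPL24 had 52.3 and 52.6 FPKM with siLAT1-2, 48.4 and 52.3 with siLAT1-3, and 45.8 and 44.5 with siNC. HDGF, a growth factor gene that overlaps MRPL24 in RefSeq, averaged 209 FPKM in the EZH2 table and was called higher with siEZH2-2 (log2 0.20, limma, adjusted p = 0.0351) but not with siEZH2-1 (log2 0.16, adjusted p = 0.0621). In the LAT1 table HDGF averaged 291 FPKM. There it was called higher with siLAT1-2 (log2 0.33, limma, adjusted p = 1.38e-04) and siLAT1-3 (log2 0.27, adjusted p = 3.65e-04).

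MRPL11, at the base of the stalk that binds translation factors, broke away with siEZH2-1 and not with siEZH2-2. It had 40.0 and 35.4 FPKM with siEZH2-2, 23.9 and 25.6 with siEZH2-1, and 35.5 and 39.4 with siNC. The siEZH2-1 libraries were below all others, while siEZH2-2 and siNC overlapped. The change was log2 -0.58 ± 0.08 for siEZH2-1 against siNC (66.1% of siNC; limma, adjusted p = 0.00421) and 0.59 ± 0.08 for siEZH2-2 against siEZH2-1 (adjusted p = 0.00598), and neither call was lost when a library was left out. MRPL11 stood at 39.9 to 43.4 FPKM in the LAT1 series.

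MRPS30 and MRPS35 were also lowest with siEZH2-1. Unlike for MRPL11, their siEZH2-2 libraries did not overlap with siNC, lying below it for MRPS30 and above it for MRPS35. Neither of these siEZH2-2 differences from siNC was called. MRPS30, a large-subunit protein without bacterial counterpart, had 13.3 and 12.7 FPKM with siEZH2-2, 10.4 and 10.1 with siEZH2-1, and 14.1 and 13.8 with siNC. Its change with siEZH2-1 was log2 -0.41 ± 0.06 (limma, adjusted p = 0.00382), and the difference between the siRNAs was 0.32 ± 0.06 (adjusted p = 0.0141), a call lost without siEZH2-1 replicate 1 (0.0647), siEZH2-1 replicate 2 (0.0984) or siEZH2-2 replicate 1 (0.0657). MRPS35, a small-subunit protein without bacterial counterpart, had 104 and 102 FPKM with siEZH2-2, 76.4 and 77.2 with siEZH2-1, and 97.5 and 94.8 with siNC. The siEZH2-1 libraries were again the lowest, at log2 -0.32 ± 0.05 against siNC (limma, adjusted p = 0.00467), and siEZH2-2 was above siEZH2-1 by 0.42 ± 0.05 (adjusted p = 0.00256). MRPS18A had 11.4 and 9.66 FPKM with siEZH2-2 and 13.6 and 15.7 with siEZH2-1 (log2 -0.44 ± 0.11, limma, adjusted p = 0.0397), a call lost without siEZH2-1 replicate 1 (0.0602), siEZH2-1 replicate 2 (0.196) or siEZH2-2 replicate 2 (0.165). The count of 7 differing members was 3 without either siEZH2-1 library and 4 without siEZH2-2 replicate 2; centred on the member median, 5 were higher and 5 lower.

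Between siLAT1-3 and siLAT1-2, 14 members were called higher with siLAT1-3 (19.4%, against 12.4% of genes) and 9 lower (12.5%, against 13.1%). Without overlap of libraries, 28 were higher (38.9%, against 32.7%) and 17 lower (23.6%, against 31.0%). Without siLAT1-2 replicate 1 the counts were 6 and 7, without siLAT1-2 replicate 2 they were 8 and 6, without siLAT1-3 replicate 1 they were 7 and 8, and without siLAT1-3 replicate 2 they were 5 and 7; centred on the member median they were 4 and 18. MRPL4, whose bacterial counterpart reaches into the exit tunnel, had 5.74 and 5.09 FPKM with siLAT1-3, 10.2 and 10.8 with siLAT1-2, and 8.79 and 9.41 with siNC. The siLAT1-3 libraries were below all others of the series. The mean was 59.5% of siNC (log2 -0.66 ± 0.07; limma, adjusted p = 6.16e-04) and 51.7% of siLAT1-2 (log2 -0.84 ± 0.07, adjusted p = 2.55e-04), and both calls held whichever library was left out. With siEZH2-1 MRPL4 was called higher, at 13.1 and 14.3 FPKM against 9.83 and 11.1 with siNC (log2 0.36, limma, adjusted p = 0.0391), a call lost without either siEZH2-1 library (0.0723 and 0.191) or either siNC library (0.186 and 0.0508).

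MRPL15, of the large subunit core, was called in opposite directions with the LAT1 siRNAs. It had 47.2 and 46.1 FPKM with siLAT1-3, 77.9 and 78.1 with siLAT1-2, and 58.4 and 57.2 with siNC. The 3 groups did not overlap, and siNC lay between the siRNAs. The change was log2 -0.30 ± 0.03 with siLAT1-3 (limma, adjusted p = 4.21e-04) and 0.43 ± 0.03 with siLAT1-2 (adjusted p = 9.62e-05), and siLAT1-3 was below siLAT1-2 by 0.73 on the log2 scale (-0.73 ± 0.03, adjusted p = 1.83e-05). All 3 calls held whichever library was left out. In the EZH2 series it had 87.4 and 84.2 FPKM with siEZH2-2, 78.5 and 82.8 with siEZH2-1, and 71.9 and 73.4 with siNC. It was called higher with siEZH2-2 (log2 0.24, limma, adjusted p = 0.0197), a call lost without siEZH2-2 replicate 1 (0.0999) or either siNC library (0.113 and 0.073).

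MRPS17, whose bacterial counterpart binds ribosomal RNA early, had 1.94 and 1.47 FPKM with siLAT1-3, 2.61 and 3.20 with siLAT1-2, and 2.64 and 3.30 with siNC. The siLAT1-3 libraries were the lowest, at log2 -0.55 ± 0.13 against siNC (limma, adjusted p = 0.0192) and -0.53 ± 0.13 against siLAT1-2 (adjusted p = 0.0263). Both calls were lost without siLAT1-3 replicate 2 (0.0914 and 0.121), the one against siNC also without siNC replicate 2 (0.112) and the one against siLAT1-2 without siLAT1-2 replicate 2 (0.123). MRPS2, a small-subunit protein with a bacterial counterpart, had 24.2 and 24.1 FPKM with siLAT1-3, 17.1 and 17.9 with siLAT1-2, and 23.7 and 23.4 with siNC. Here the siLAT1-2 libraries were the lowest, at log2 -0.41 ± 0.03 against siNC (limma, adjusted p = 2.63e-04), and siLAT1-3 was above siLAT1-2 by 0.44 ± 0.03 (adjusted p = 2.47e-04). MRPS30 had 18.2 and 15.96 FPKM with siLAT1-3, 13.5 and 13.2 with siLAT1-2, and 16.4 and 16.7 with siNC. It was called lower with siLAT1-2 (log2 -0.29 ± 0.06, limma, adjusted p = 0.011), a call lost without siLAT1-2 replicate 2 (0.0526), siNC replicate 1 (0.0533) or siNC replicate 2 (0.0662), and siLAT1-3 was above siLAT1-2 by 0.33 ± 0.06 (adjusted p = 0.00862). MRPL52, a large-subunit protein without bacterial counterpart, was higher with siLAT1-3 than with siLAT1-2 by log2 0.30 ± 0.09 (limma, adjusted p = 0.0437), a call lost without siLAT1-2 replicate 1 (0.176), siLAT1-2 replicate 2 (0.0736) or siLAT1-3 replicate 2 (0.19).

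**Figure D5:**
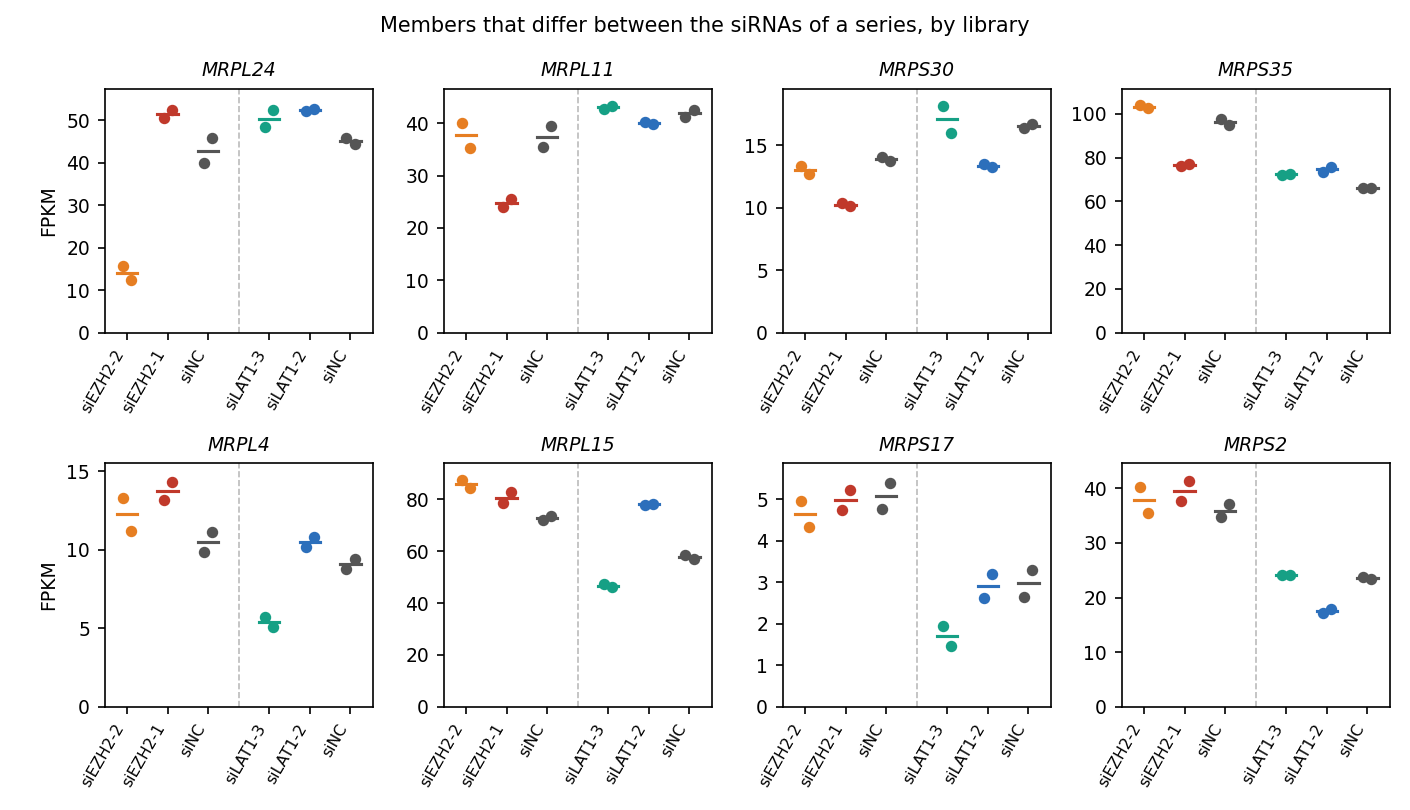
FPKM by library (dots, with group means as lines, n = 2) of 8 members that differed between the 2 siRNAs of a series; the dashed line separates the EZH2 and LAT1 tables. MRPL24 is low with siEZH2-2 (15.7 and 12.3 FPKM), MRPL11, MRPS30 and MRPS35 with siEZH2-1, MRPL4, MRPL15 and MRPS17 with siLAT1-3, and MRPS2 and MRPS30 with siLAT1-2.

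Mitochondrial ribosomal proteins under other gene names, assembly factors and regulators were taken as further lists. Of 7 such proteins tested, 1 was called higher with each EZH2 siRNA, namely ICT1, a peptidyl-tRNA hydrolase built into the large subunit. ICT1 had 35.9 and 42.0 FPKM with siEZH2-1, 38.3 and 36.4 with siEZH2-2, and 25.7 and 29.2 with siNC (log2 0.49, adjusted p = 0.0127, and 0.43, adjusted p = 0.0185, by limma). The call with siEZH2-1 was lost without siEZH2-1 replicate 2 (0.0665) or siNC replicate 1 (0.0676), and that with siEZH2-2 without siEZH2-2 replicate 1 (0.0826) or siNC replicate 1 (0.0928). With siLAT1-2, 2 of the 7 were called higher and 1 lower, and with siLAT1-3 1 was called higher. For this list and the next, the shares of all genes tested were 15.9% higher and 11.4% lower with siEZH2-1, 13.9% and 10.9% with siEZH2-2, 18.6% and 13.9% with siLAT1-2, and 17.9% and 13.6% with siLAT1-3.

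Of 28 assembly and RNA modification factors of the mitochondrial ribosome tested, 9 were called higher and 0 lower with siEZH2-1, 4 and 1 with siEZH2-2, 6 and 1 with siLAT1-2, and 9 and 2 with siLAT1-3. WBSCR16 (RCC1L in RefSeq), needed for ribosome assembly, had 34.7 and 37.3 FPKM with siEZH2-1, 35.3 and 33.5 with siEZH2-2, and 17.8 and 19.7 with siNC. It had 18.4 and 18.3 FPKM with siLAT1-2, 17.7 and 18.4 with siLAT1-3, and 11.3 and 10.6 with siNC. All siRNA libraries of WBSCR16 were well above siNC, at log2 0.91, 0.85, 0.70 and 0.67 with siEZH2-1, siEZH2-2, siLAT1-2 and siLAT1-3 (limma, adjusted p = 5.48e-04, 6.33e-04, 8.06e-05 and 9.59e-05). RPUSD4, a pseudouridine synthase of the large ribosomal RNA, was called higher with each of the 4 as well, at log2 0.51, 0.44, 0.35 and 0.46 (limma, adjusted p = 0.00153, 0.00247, 0.00388 and 0.00138). No call of WBSCR16 or RPUSD4 was lost when a library was left out. TFB1M, which methylates the small ribosomal RNA, was called lower with siEZH2-2, at 4.65 and 4.23 FPKM against 6.67 and 6.92 with siNC (log2 -0.52 ± 0.08, limma, adjusted p = 0.00689).

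Of 16 translation factors tested, 3 were called higher and 0 lower with each EZH2 siRNA, 2 and 1 with siLAT1-2, and 3 and 3 with siLAT1-3, beside 15.9%, 13.9%, 18.6% and 17.9% of all genes called higher and 11.4%, 10.9%, 13.9% and 13.6% called lower with siEZH2-1, siEZH2-2, siLAT1-2 and siLAT1-3. GFM2, which acts in ribosome recycling, was lower with siLAT1-3, at 11.5 and 12.5 FPKM against 15.9 and 15.8 with siNC (log2 -0.37 ± 0.05, limma, adjusted p = 0.00147). MTIF3, an initiation factor, was higher with siEZH2-2, at 16.1 and 15.3 FPKM against 12.5 and 12.1 with siNC (log2 0.33 ± 0.06, limma, adjusted p = 0.00921), a call lost without siEZH2-2 replicate 1 (0.0551) or siNC replicate 2 (0.0527). Of the 2 mitochondrial ribosomal RNAs, MT-RNR1 was called lower with siLAT1-2 (log2 -0.23, limma, adjusted p = 0.0359) and neither was called with the other siRNAs; that call was lost without siLAT1-2 replicate 1 (0.112), siNC replicate 1 (0.175) or siNC replicate 2 (0.0903).

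Among regulators of mitochondrial transcription and biogenesis, 1 of 15 tested was called higher and 2 lower with siEZH2-1, 1 and 3 with siEZH2-2, and of 16 tested 5 and 2 with siLAT1-2 and 5 and 1 with siLAT1-3, where the same all-gene shares apply. TFAM, which packs mitochondrial DNA and starts its transcription, had 19.9 and 16.9 FPKM with siEZH2-1, 20.4 and 21.8 with siEZH2-2, and 41.5 and 37.0 with siNC. It had 33.3 and 34.4 FPKM with siLAT1-2, 10.4 and 9.28 with siLAT1-3, and 30.7 and 28.8 with siNC. TFAM was thus low with both EZH2 siRNAs and with siLAT1-3, at log2 -1.06, -0.86 and -1.51 (limma, adjusted p = 8.70e-04, 0.00163 and 1.42e-05), but not with siLAT1-2 (0.18, adjusted p = 0.0515). TFB2M, which opens the mitochondrial promoter, was low with siEZH2-2, at 25.8 and 26.9 FPKM against 59.5 and 59.9 with siNC (log2 -1.15 ± 0.05, limma, adjusted p = 1.48e-04), and stood at 63.1 and 59.7 FPKM with siEZH2-1. MYC was called lower with siEZH2-1 (log2 -0.32, limma, adjusted p = 0.00846) and siEZH2-2 (-0.57, 0.00102) and higher with siLAT1-2 (0.19, 0.00353) and siLAT1-3 (0.32, 4.14e-04). The siEZH2-1 call of MYC was lost without siEZH2-1 replicate 2 (0.0635) or siNC replicate 1 (0.0575).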

How the data were processed

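RNA of 12 KYSE510 libraries was analysed, 2 in each of 6 groups. The 2 CUT&Tag samples of the series were not used here. The authors deposited 2 tables of FPKM values per gene, one per series. The submitters' processing notes name hg19 and hg38 as builds and STAR, Bowtie, Bowtie2, SEACR, Picard and Trim Galore as tools, with no role given. The counting program, annotation and use of strand are not given in the sources used here. Both control titles of the LAT1 series carry the number 1, and the descriptions, which number them apart, were followed.

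Each table was analysed alone, since the tables may have been normalized separately. Values were taken as log2(FPKM + 1), genes averaging below 1 FPKM were removed, and limma 3.58.1 (R 4.3.3) with an intensity trend was fitted to the 3 groups of a table, with two-sided p-values adjusted by Benjamini-Hochberg over all genes tested and a threshold of 0.05. The fit was tested on simulated data. Depth came from low values being near whole multiples of 1 read. At the depth with the highest share among those tried, 75.4% to 88.5% were whole within 0.12 reads. Chance gives 24% at a fixed depth and more at the best of many depths, so 24% is too low a mark for these shares. The deposited values are FPKM, so no count test was run. Alternatives were quantile normalization, centring on the member median, a filter at 5 FPKM or none, a pseudocount of 0.1, limma without trend, a replicate block and leaving out each library. A crossed block was added after the data were seen. Promoters were read from RefSeq with Python 3.11.15.

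Members named were the highest and lowest in level, those called and at least 0.5 from the member median on the log2 scale, those called the same way with both siRNAs of a series (up to 5 per direction) or with all 4, the leading differences between siRNAs and the MRPS18 paralogs. The members and lists were chosen with earlier results of these data known.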

Additional observations from a re-analysis of the deposited data

Results flagged for a closer look

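For 5 members, the 2 siRNAs against the same target differed by a tested difference of at least 0.5 on the log2 scale (limma, Benjamini-Hochberg adjusted over all genes). In the EZH2 series, siEZH2-2 minus siEZH2-1 was -1.82 for MRPL24 (adjusted p = 3.72e-04) and 0.59 for MRPL11 (adjusted p = 0.00598). In the LAT1 series, siLAT1-3 minus siLAT1-2 was -0.84 for MRPL4 (adjusted p = 2.55e-04), -0.73 for MRPL15 (adjusted p = 1.83e-05) and -0.53 for MRPS17 (adjusted p = 0.0263). MRPS17 lies at 1.47 to 3.30 FPKM in that series, and its call was lost without siLAT1-2 replicate 2 (adjusted p = 0.123) or siLAT1-3 replicate 2 (0.121). What sets the siRNAs of a pair apart was not tested.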

How the results depend on the processing

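No call of a named gene changed direction under the alternatives run. The member median changed sign for siLAT1-2 with quantile normalization or without siNC replicate 1. Centring on the member median removes any shift the members share and holds that median near 0 by construction. Its negative sign for siEZH2-2 and siLAT1-3 when centred therefore carries no information. The crossed block, added after the data were seen, exchanges the replicate numbers of siEZH2-2. It gave 33 members higher and 8 lower with siEZH2-1 and 29 and 6 with siEZH2-2. The plain block gave 9 and 3, and 6 and 1. The exchange was chosen from the deviations that the crossed block then takes up, so a rise in calls is built into it. Of 69 calls of named members, 32 were made under every alternative and 37 were lost under at least 1. Lost were 31 without a filter, 16 without trend, 15 after centring, 14 with the replicate block, 5 with quantile normalization and 0 with the pseudocount of 0.1. Leaving out siNC replicate 1 or 2 lost more of these calls than any of these settings except the missing filter. Members called with siEZH2-1 numbered 21, and 8 without a filter, 12 with the replicate block, 41 with the crossed block and 7 to 19 without 1 library. For siEZH2-2 the number was 16, and 9 centred, 4 without a filter, 7 with the replicate block, 35 with the crossed block and 3 to 14 without 1 library. For siLAT1-2 it was 20, and 13 without trend, 11 without a filter and 9 to 22 without 1 library, and for siLAT1-3 it was 23, and 15 to 23 without 1 library. For siEZH2-2 minus siEZH2-1 it was 7, and 4 without trend, 3 without a filter, 4 with the replicate block, 29 with the crossed block and 3 to 5 without 1 library. For siLAT1-3 minus siLAT1-2 it was 23, and 12 without trend, 11 without a filter and 12 to 17 without 1 library.

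The member median was 0.02 centred and 0.055 to 0.16 without 1 library for siEZH2-1, -0.0097 and 0.031 to 0.13 for siEZH2-2, -0.021 with quantile normalization and -0.0054 to 0.014 without 1 library for siLAT1-2, and -0.028 centred, 0.024 with quantile normalization and 0.03 to 0.05 without 1 library for siLAT1-3. SLC7A5 with siEZH2-2 stayed at -0.35 but lost its call without a filter (adjusted p = 0.0579). The causes were not tested. The labels give no pairing of libraries. In the EZH2 table, same-numbered libraries deviated with r of 0.355 for siEZH2-1 and siNC. For siEZH2-2 the r was -0.353 with siEZH2-1 and -0.339 with siNC, so its numbers ran against both other groups. The crossed block exchanges these siEZH2-2 numbers and was thus chosen after this was seen. In the LAT1 table r was 0.0177, 0.0334 and 0.0826. With 2 libraries a group and FPKM only, small changes of low members such as MRPS18C and MRPS17 are limited by depth.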
